A study of Mus musculus with 6 samples.

Results

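Expression of 42 interferon-stimulated genes was compared between MCEC cells with a Fat4 knockdown and control MCEC cells. MCEC is a mouse line described as cardiac endothelial. The 3 knockdown libraries carried a short hairpin RNA against Fat4 (genotype ShFat4), and the 3 control libraries came from wild-type MCEC, with no further treatment or time point named for either group. The members were taken by gene symbol from a list of well-known genes of the response, and each symbol occurred on 1 row of the deposited table, so 42 of 78317 gene rows were used. The labels do not say whether the controls carried a non-targeting hairpin, so the effects of a hairpin as such and of less Fat4 cannot be told apart. They name no separate cultures behind replicate libraries either, and the p-values cover only the variation among these 6 libraries, part or all of which may be technical.

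Interferons are secreted proteins that warn cells of viral infection. Type I and type III interferons act through receptors, the kinases JAK1 and TYK2, and a complex with STAT2 and IRF9 that binds the interferon-stimulated response element, while interferon gamma acts mainly at gamma-activated sequences. The genes switched on encode sensors of foreign RNA and DNA, proteins that block translation or degrade RNA, GTPases that attack intracellular parasites, and the ubiquitin-like protein ISG15. In endothelium this programme accompanies inflammation and leukocyte recruitment, and the study sets its comparison in the context of tumour immunity.

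The upstream stretches below are shown because the gene that rose (Isg15), a gene with no reads in the knockdown (Rsad2) and the gene of highest level per length (Bst2) all carry the same kind of element, as do Ifit1, Ifit3 and Stat2, which did not pass the test or were too scarce for it. Only members with a match to the element were printed, so its presence in all of them follows from that choice. Other members looked up had a listed promoter without a match, namely Cmpk2, Ifit2, Trim25, Ifi35, Irf7, Ifih1 and Irf9. Sequences are from the RefSeq promoter table (build GRCm38.p6), with 250 bases before the start site for Isg15 and 60 bases for the others, written in the direction of transcription. Capitals mark the core of the interferon-stimulated response element, searched on both strands as GAAA, 2 bases of any kind and GAAA.
Isg15 upstream stretch, chr4:156200819-156201068, minus strand: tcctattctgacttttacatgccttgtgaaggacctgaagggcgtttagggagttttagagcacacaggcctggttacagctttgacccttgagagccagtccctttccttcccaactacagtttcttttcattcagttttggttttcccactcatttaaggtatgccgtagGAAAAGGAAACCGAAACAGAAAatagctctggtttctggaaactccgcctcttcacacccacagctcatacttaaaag
Ifit1 upstream stretch, chr19:34640769-34640828, plus strand: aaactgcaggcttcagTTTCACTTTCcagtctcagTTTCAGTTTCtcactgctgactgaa
Ifit3 upstream stretch, chr19:34583364-34583423, plus strand: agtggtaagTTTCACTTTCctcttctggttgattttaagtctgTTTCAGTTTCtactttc
Rsad2 upstream stretch, chr12:26456539-26456598, minus strand: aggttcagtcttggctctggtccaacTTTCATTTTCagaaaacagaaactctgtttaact
Bst2 upstream stretch, chr8:71537566-71537625, minus strand: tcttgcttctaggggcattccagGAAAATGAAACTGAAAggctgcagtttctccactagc
Stat2 upstream stretch, chr10:128270250-128270309, plus strand: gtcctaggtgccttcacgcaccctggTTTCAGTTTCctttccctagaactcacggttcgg
The Isg15 stretch held 3 overlapping cores, at positions -78, -72 and -66 from the start site. Of 28 members matched in that table, 15 had the core within 250 bases before a listed start, against 2.98% of all 32851 promoters. It was present in 6 of 15 matched members that were expressed enough to test and in 9 of 13 that were not. The core TTCNNNGAA of the gamma-activated sequence, which reads the same on both strands, was found for 6 of the 28 members and in 7.02% of all promoters. At Bst2 the match to that core overlapped the response element. For both cores a member counted if any of its listed promoters matched, and some members had 2. The background is a share of single promoters, so the 2 rates are not strictly alike. These matches describe letters in a window and say nothing of binding.

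Library totals ran from 10305810 to 11870091 counts. Values below are CPM, that is counts relative to library size, with library sizes scaled by the TMM method. A count of 0 allows up to 3 counts, which is 0.253 to 0.291 CPM a library over the unscaled totals, for counting error only. Fat4 had 0.759, 0.980 and 0.817 CPM in knockdown libraries, against 0.971, 1.94 and 2.56 CPM in control libraries. It was lower in the knockdown (log2 fold change -1.17, SE 0.35, edgeR quasi-likelihood adjusted p = 0.033), although control replicate 1 lay inside the knockdown range, and the call held in 1 of the 6 fits that left out a library. Of 14 endothelial markers, 10 lay under 1 CPM in both groups and Tie1, Vwf, Erg, Cldn5, Emcn and Robo4 were at 0 counts, whereas all 11 mesothelial markers were detected well enough to test. Most defining endothelial transcripts were thus absent or near 0 in cells labelled as endothelial.

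The interferon-stimulated genes formed a mostly quiet programme in both groups, and Isg15 was the 1 member that passed the test. Of the 42 members, 20 had enough counts to be tested, 22 did not, and 23 lay under 1 CPM in both groups. Isg15 rose in the knockdown and 0 members fell, at a Benjamini-Hochberg adjusted p under 0.05. Across all 13372 genes tested, 17.4% were called in either direction, with 8.94% of the tested genes higher and 8.44% lower in the knockdown. The share called among the members, 1 of 20, was thus not above that background. Calls were rarer among scarce genes: 7.86% of the 1616 genes at 2 to 5 CPM, the range of Isg15, were called, against 20.1% of the 2919 genes at 20 to 50 CPM. The background of 2324 called genes depended on single libraries, with 1029 called when control replicate 2 was left out, 1165 and 1216 when knockdown replicates 2 and 1 were, 1226 when control replicate 3 was, and 3077 when control replicate 1 was. Scaling by library size alone gave 853 higher and 1740 lower genes, where the reported fit gave 1195 higher and 1129 lower.

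The median log2 fold change of the 20 tested members was 0.05, against -0.01 over all genes tested, and it was -0.01 when scaled by library size alone. Those 20 passed a filter on low counts and are not the whole list. At an unadjusted p under 0.05 the count was again 1 member of 20, against 31.2% of all genes. The groups did not overlap for 4 of the 20, namely Isg15, Trim25 and Irgm1 above and Eif2ak2 below the controls, which compares with 34.9% of all genes tested. Summed over all 42 members, the level was 281.5, 278.0 and 286.5 CPM in knockdown libraries, against 271.2, 271.8 and 267.9 CPM in control libraries. This sum follows the most abundant members, with Ifi27, Trim25, Bst2 and Irf1 each averaging 39.3 to 46.3 CPM over the 6 libraries. The order of the groups in that sum depended on scaling, since with the CPM of the authors' deposited table the sums were 273.3, 270.0 and 284.7 in knockdown libraries and 271.0, 276.7 and 277.4 in control libraries. In bulk libraries such as these, fewer cells expressing a gene and less RNA per cell cannot be told apart.

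**Figure D1:**
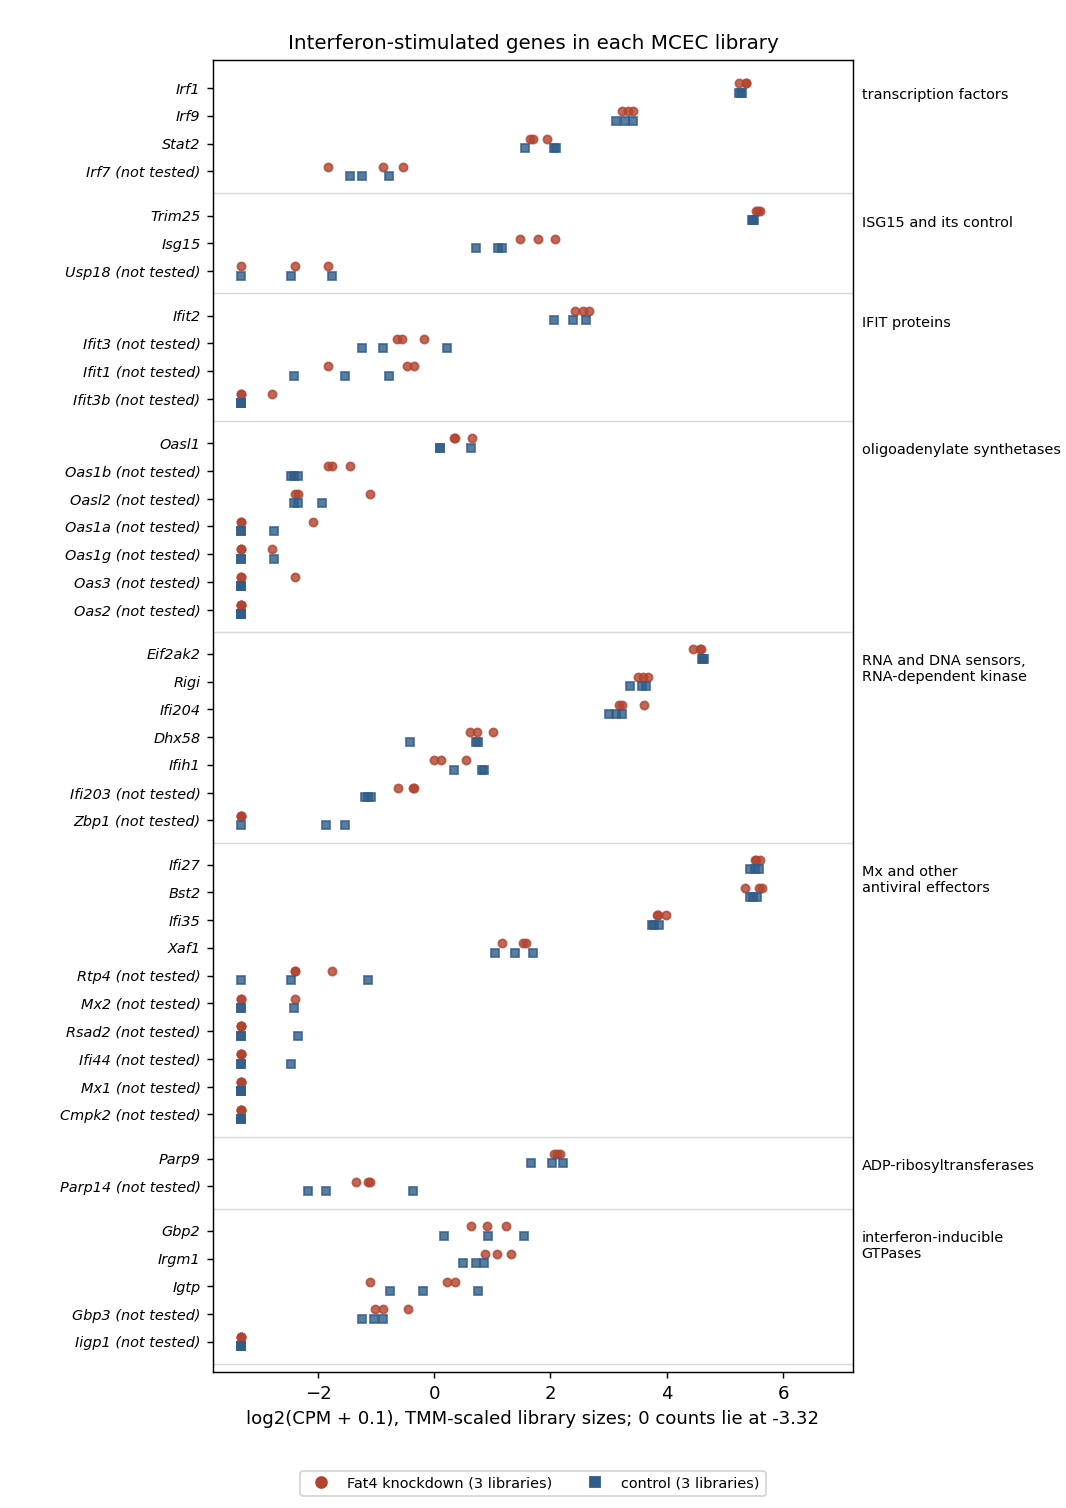
Level of each of the 42 interferon-stimulated genes in every library, as log2(CPM + 0.1), grouped by role. Red circles are the 3 knockdown libraries, drawn above the blue squares of the 3 control libraries, and points at the left edge are 0 counts. Levels span the range from 0 counts to about 50 CPM, and in most rows the colours mix.

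Isg15 (ENSMUSG00000035692, GRCm39 chromosome 4, exons spanning 156283912 to 156285253) encodes the ubiquitin-like modifier that is attached to many proteins after interferon. Its deposited counts were 30, 34 and 45.33 in knockdown libraries, against 22, 23 and 19 in control libraries. Scaled, this was 2.68, 3.33 and 4.11 CPM in knockdown libraries, against 2.14, 2.03 and 1.55 CPM in control libraries. Every knockdown library lay above every control library. The means were 3.37 ± 0.719 CPM in the knockdown and 1.90 ± 0.315 CPM in controls (SD, n = 3 each). The log2 fold change was 0.83 (SE 0.22, 95% interval 0.35 to 1.30, edgeR quasi-likelihood adjusted p = 0.0191), a 1.77-fold difference. The call rested on few counts. It was lost without knockdown replicate 2 (edgeR adjusted p = 0.0623), knockdown replicate 3 (0.0944), control replicate 2 (0.0540) or control replicate 3 (0.0911), with log2 fold changes of 0.66 to 0.88 in those fits. DESeq2 gave it a log2 fold change of 0.83 with an unadjusted p of 0.0115 and no adjusted p. A processed pseudogene of Isg15, Gm9706, had 0, 1 and 0 counts in knockdown libraries and 0, 2 and 3 in control libraries, and the log2 fold change of both rows summed was 0.73 (edgeR adjusted p = 0.0281).

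**Figure D2:**
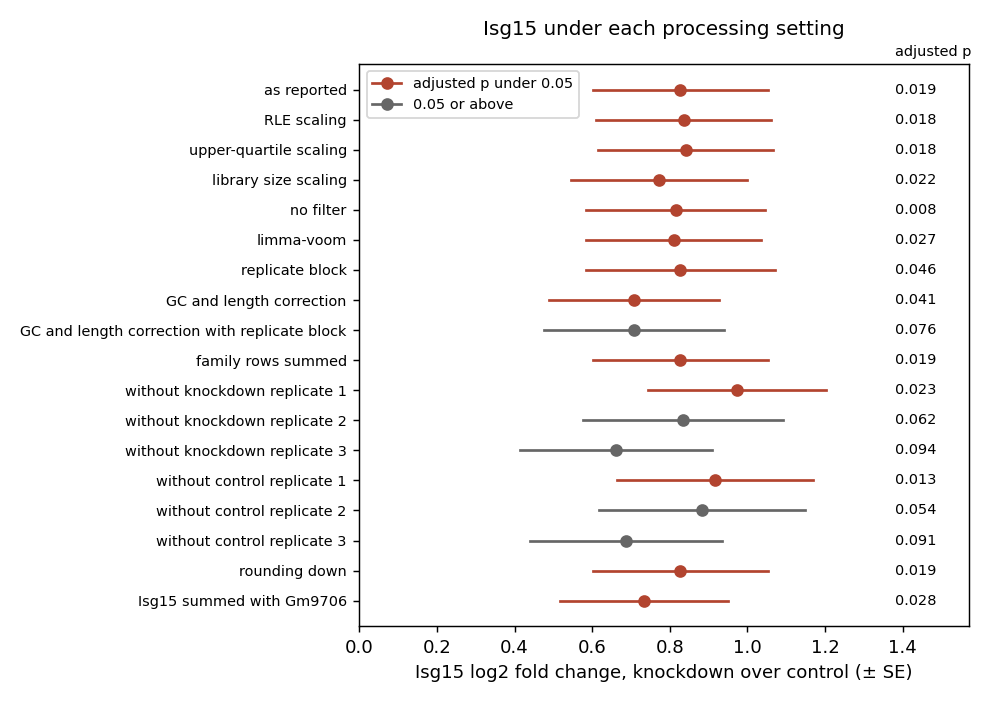
Log2 fold change of Isg15, knockdown over control, with its SE as a bar, under each processing setting that gave it an adjusted p, printed at the right. Red marks an adjusted p under 0.05 and grey one at or above it. All values are positive, from 0.66 to 0.97, and 5 of the 17 alternatives miss the threshold.

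The other genes around ISG15 did not pass. Trim25, a ubiquitin ligase that helps activate RIG-I, had 46.5, 48.4 and 47.4 CPM in knockdown libraries, against 44.7, 45.0 and 44.1 CPM in control libraries. The groups did not overlap, but they stood only 0.09 apart on the log2 scale (95% interval -0.04 to 0.22, edgeR adjusted p = 0.367). Usp18, which encodes the protease that removes ISG15 and restrains the type I receptor, had 3 counts in all in knockdown libraries and 3 in control libraries. Enzymes that attach ISG15 were also scarce. Ube2l6, the conjugating enzyme, averaged 4.22 ± 0.573 CPM in knockdown and 4.24 ± 1.10 CPM in control libraries (SD, n = 3 each), and Uba7, the activating enzyme, lay under 1 CPM. Herc6, the mouse ligase for ISG15, had 6.29, 6.42 and 6.17 CPM in knockdown libraries, against 5.53, 5.21 and 4.19 CPM in control libraries, without overlap and without passing the test (log2 fold change 0.34, SE 0.14, edgeR adjusted p = 0.115).

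The transcription factors of the response were present in both groups and none passed the test. Irf1, which is induced mainly by interferon gamma and by NF-kappaB, had the highest level of the 4 per length. Its levels were 37.8, 41.1 and 40.8 CPM in knockdown libraries and 38.0, 39.2 and 38.6 CPM in control libraries, so the groups overlapped (log2 fold change 0.05, 95% interval -0.10 to 0.19, edgeR adjusted p = 0.679). Irf9, the DNA-binding subunit of the type I complex, averaged 9.95 ± 0.663 CPM in knockdown and 9.66 ± 0.954 CPM in control libraries (SD, n = 3 each), and part of its reads could come from Rnf31, whose exons overlap it on the same strand. Stat2 averaged 3.30 ± 0.370 CPM in knockdown and 3.70 ± 0.724 CPM in control libraries (log2 fold change -0.15, 95% interval -0.56 to 0.26). Irf7, the factor that amplifies type I interferon production and is itself strongly induced by it, had only 13 counts over the knockdown and 12 over the control libraries. Its exons overlap Phrf1 on the opposite strand.

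IFIT proteins bind foreign RNA ends and halt its translation, and only Ifit2 was abundant enough to test. Ifit2 had 5.27, 5.78 and 6.26 CPM in knockdown libraries, against 5.15, 4.06 and 6.02 CPM in control libraries. These ranges overlapped (log2 fold change 0.18, 95% interval -0.16 to 0.52, edgeR adjusted p = 0.492). Ifit1 had 7, 7 and 2 counts in knockdown libraries and 5, 1 and 3 in control libraries. Ifit3 had 6.5, 8 and 6 counts in knockdown libraries, against 11, 5 and 4 in control libraries. Its near copy Ifit3b had 0.5 counts in the knockdown and 0 in controls, and reads shared by the copies cannot be assigned with certainty.

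The 2-5 oligoadenylate synthetases make a second messenger that activates RNase L, and 6 of the 7 lay under 1 CPM in both groups. Oasl1, whose protein lacks synthetase activity and restrains Irf7 translation in mouse, was the 1 testable member of 7. It had 1.16, 1.47 and 1.18 CPM in knockdown libraries, against 1.46, 0.971 and 0.977 CPM in control libraries, with overlap (log2 fold change 0.17, 95% interval -0.46 to 0.80). Oas2 had 0 counts in any library. Oas3, Oas1a and Oas1g had at most 1.5 counts in a library. Oas1b had 3, 2 and 2 counts in knockdown libraries and 1 count in each control library, and Oasl2 had 6 counts in all in knockdown and 4 in control libraries. For these genes a difference was not detectable at this depth.

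Sensors of foreign nucleic acid were mostly expressed, and none of the 5 tested passed. Eif2ak2 encodes PKR, the kinase that stops translation on double-stranded RNA. It had 21.7, 24.0 and 23.8 CPM in knockdown libraries, against 25.0, 24.3 and 24.7 CPM in control libraries. All knockdown libraries lay below the controls by a small margin that did not pass the test (log2 fold change -0.09, 95% interval -0.26 to 0.08, edgeR adjusted p = 0.469). Rigi, the sensor of RNA with a 5' triphosphate, had 11.3, 12.7 and 11.9 CPM in knockdown libraries, against 10.2, 11.8 and 12.4 CPM in control libraries, with overlap. Ifih1, which encodes the long double-stranded RNA sensor MDA5, had the most negative log2 fold change of the tested members, -0.50, but with a 95% interval of -1.12 to 0.12 (edgeR adjusted p = 0.261). Its levels were 0.893, 0.980 and 1.36 CPM in knockdown libraries and 1.17, 1.68 and 1.71 CPM in control libraries, with 1 knockdown library inside the control range. Dhx58, which encodes their regulator LGP2, averaged 1.63 ± 0.245 CPM in knockdown and 1.26 ± 0.532 CPM in control libraries. It overlaps antisense transcripts of few counts.

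Members that sense DNA gave no call either. Ifi204, a PYHIN family gene whose product takes part in DNA sensing, had 8.94, 9.25 and 12.1 CPM in knockdown libraries, against 7.97, 9.25 and 8.65 CPM in control libraries (log2 fold change 0.22, 95% interval -0.06 to 0.50). The highest value, in knockdown replicate 3, stood apart from the other libraries. Its relative Ifi203 had 6.12, 7 and 7.5 counts in knockdown libraries and 3.5, 4.17 and 4.33 counts in control libraries. These groups did not overlap, but the gene fell under the filter, and its counts are partly fractional. Zbp1, the sensor of Z-form nucleic acid, had 0 counts in knockdown libraries and 0, 2 and 3 in control libraries, in all 0 against 5. The 3 counts that a count of 0 allows are a limit for a single library and do not compare the groups. Without the filter the unadjusted p of Zbp1 was 0.0309 and its edgeR adjusted p was 0.211.

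The most abundant members of the programme per length were antiviral effectors, whose groups overlapped. Bst2 encodes tetherin, which holds budding virus at the cell surface, and it led all members per length at 50.9 CPM per kilobase in the knockdown and 49.7 in controls. It had 49.8, 40.5 and 47.8 CPM in knockdown libraries, against 44.5, 43.0 and 47.0 CPM in control libraries. Knockdown replicate 2 was the lowest and knockdown replicate 1 the highest of the 6 (log2 fold change 0.04, 95% interval -0.13 to 0.21). Ifi27, a small protein of mitochondria and the nuclear envelope, had 48.6, 46.3 and 45.9 CPM in knockdown libraries and 48.2, 45.9 and 42.9 CPM in control libraries (log2 fold change 0.04, 95% interval -0.10 to 0.19). Ifi35 averaged 14.8 ± 0.887 CPM in knockdown and 13.8 ± 0.665 CPM in control libraries, and the apoptosis-linked Xaf1 averaged 2.61 ± 0.409 CPM in knockdown and 2.56 ± 0.596 CPM in control libraries (SD, n = 3 each). Both had overlapping groups.

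Several effectors strongly induced by type I interferon were at or near 0 counts. Mx1, a GTPase that blocks influenza virus in mice, and Cmpk2, a mitochondrial nucleotide kinase, had 0 counts in all 6 libraries. Rsad2, which encodes the radical enzyme viperin and is the head-to-head neighbour of Cmpk2, had 0 counts in knockdown libraries and 1 in a control library. Mx2 had 1 count in each group, Ifi44 had 0 in knockdown and 1 in control libraries, and the receptor chaperone Rtp4 had 4 in knockdown and 5 in control libraries. Rsad2 and Bst2 carry the response element core printed above, at levels near 0 and near 45 CPM in both groups.

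**Figure D3:**
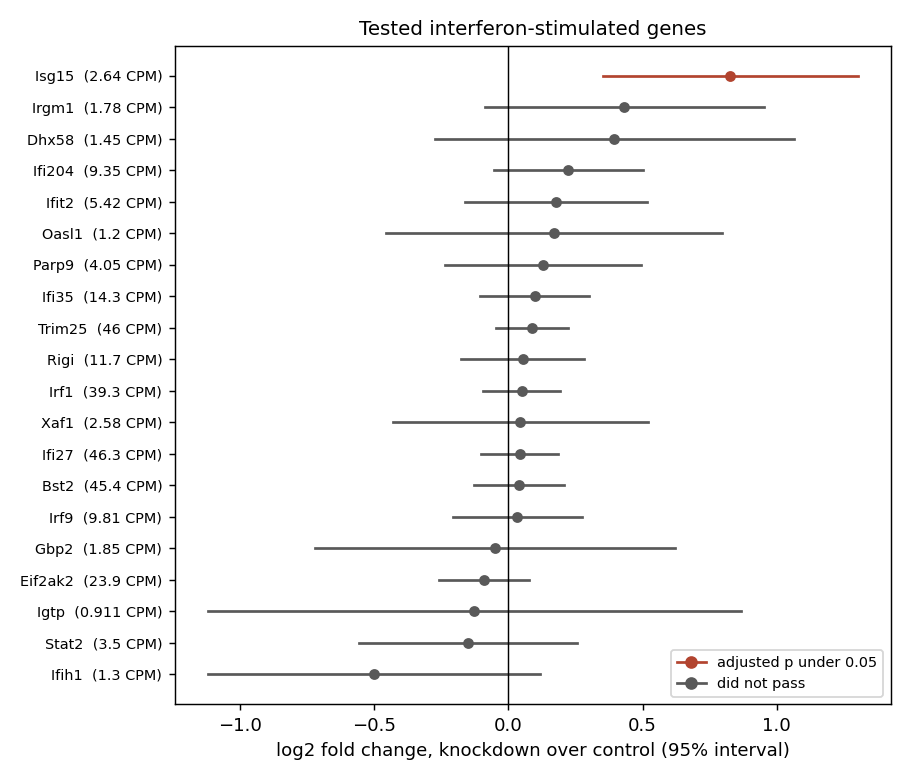
Log2 fold change, knockdown over control, of the 20 tested members with its 95% interval, ordered from highest to lowest. The label gives the mean level over the 6 libraries. Isg15, in red, has an interval above 0, and the intervals of the other 19 members include 0 and are widest for the scarcest genes.

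Parp9 and Parp14 encode ADP-ribosyltransferases that modulate interferon signalling. Parp9 did not pass the test and Parp14 was too scarce for it. Parp9 had 4.37, 4.21 and 4.08 CPM in knockdown libraries, against 4.56, 3.09 and 3.99 CPM in control libraries, with overlap (log2 fold change 0.13, 95% interval -0.24 to 0.49). Its exons overlap those of Dtx3l, its partner gene, on the opposite strand. Parp14 had 11 counts in all in knockdown libraries and 10.5 in control libraries.

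The GTPases, which act mainly downstream of interferon gamma, were also low. Irgm1 had 2.41, 2.01 and 1.72 CPM in knockdown libraries, against 1.55, 1.71 and 1.30 CPM in control libraries. The groups were barely separated (log2 fold change 0.43, 95% interval -0.09 to 0.95, edgeR adjusted p = 0.257). Gbp2, a guanylate-binding protein gene with the highest level per length in this role, had 1.79, 2.25 and 1.45 CPM in knockdown libraries, against 1.02, 2.83 and 1.79 CPM in control libraries, and the control libraries alone spanned the whole range. Igtp averaged 0.870 ± 0.442 CPM in knockdown and 0.952 ± 0.571 CPM in control libraries (SD, n = 3 each) and its exons overlap Irgm2 on the same strand. Gbp3 had 16 counts in all in knockdown libraries and 13 in control libraries, and Iigp1 had 0 in all 6.

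**Figure D4:**
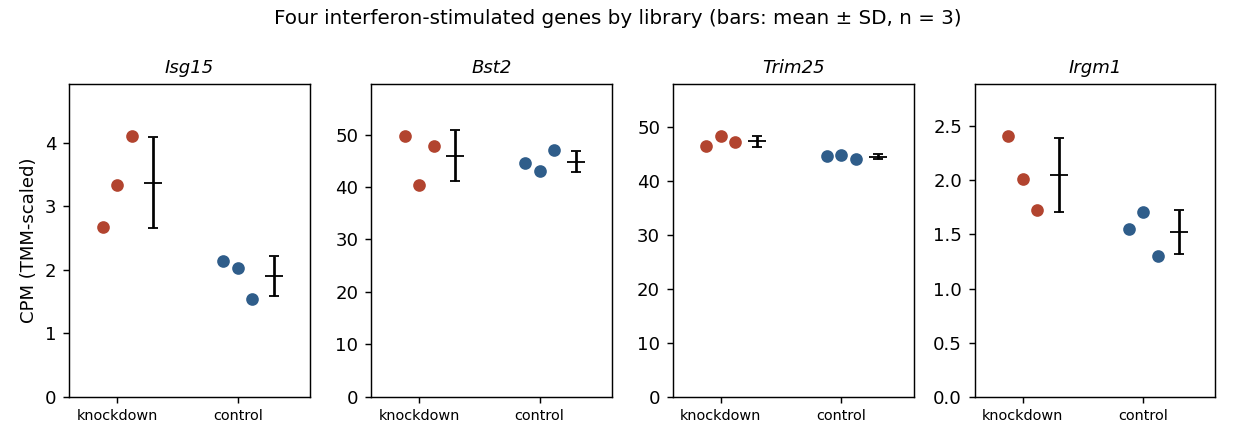
CPM in each library for Isg15, Bst2, Trim25 and Irgm1, knockdown in red at the left and control in blue at the right of each panel, with the mean and SD (n = 3) as a bar. Axes start at 0 and differ in scale. The 3 knockdown libraries lie above the controls for Isg15, Trim25 and Irgm1, and the groups mix for Bst2.

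Interferon itself was not detected beyond single reads. Of 21 interferon genes 18 had 0 counts, and Ifne, Ifnz and Ifng had at most 2 counts in all in either group. The machinery to respond was transcribed. Ifnar1, the first chain of the type I receptor, had 29.3, 30.1 and 26.2 CPM in knockdown libraries, against 32.8, 32.9 and 34.6 CPM in control libraries. It fell in the knockdown (log2 fold change -0.23, SE 0.08, edgeR adjusted p = 0.0470), which passed narrowly. The call of Ifnar1 held in 8 of 19 alternatives, and in 1 of the 6 fits that left out a library. Its partner Ifnar2 averaged 39.6 ± 1.56 CPM in knockdown and 44.9 ± 0.744 CPM in control libraries, without overlap and without a call (log2 fold change -0.18, edgeR adjusted p = 0.0726). The gamma receptor chains Ifngr1 and Ifngr2 (both 0.12), the type III chain Ifnlr1 (-0.16) and the shared chain Il10rb (-0.12) had log2 fold changes that did not pass.

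Of the kinases and STATs downstream, Stat3 passed. Jak1 (log2 fold change -0.12, edgeR adjusted p = 0.198), Jak2 (-0.14, 0.287) and Tyk2 (-0.20, 0.220) did not pass, each with knockdown libraries below the controls. That order was found for 4 of the 8 genes tested in this group, Stat3 included, and for 17.5% of all genes tested. Stat3, the main transducer of interleukin 6 family cytokines, had 147, 151 and 148 CPM in knockdown libraries, against 154, 185 and 183 CPM in control libraries. It fell (log2 fold change -0.23, edgeR adjusted p = 0.0301), which held in 12 of 19 alternatives but in only 1 of the 6 fits that left out a library. In the same group, Irf2, Crebbp and Ep300 did not pass and Irf8 had 0 counts.

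Over the wider pathway, 59 of 85 listed genes could be tested, of which 5 rose and 6 fell (median log2 fold change -0.09, against -0.01 over all genes tested). This count of 11 of 59 was close to the 17.4% called among all genes. With scaling by library size alone 2 rose and 8 fell, with a median log2 fold change of -0.15 (-0.07 over all genes). Corrected for GC content and length, 3 rose and 3 fell, with a median of -0.03 (-0.0002 over all genes). The count of 11 was 5 or 6 without knockdown replicate 1 or 2 or control replicate 2 or 3. Tank, an adaptor of the kinases that switch on interferon genes, rose (log2 fold change 0.47, SE 0.09, edgeR adjusted p = 0.00283), and so did the DNA sensor gene Cgas (0.32). Dhx9, an RNA helicase gene, fell (-0.40), and so did Socs3, a feedback inhibitor of JAK kinases (-0.43, edgeR adjusted p = 0.00224). Eif2s1, which encodes the substrate of PKR, rose (0.33), as did Eif2s2 (0.23), while Ago2, the slicer of RNA interference, fell (-0.29). Pias2 rose (0.26) and Pias3 fell (-0.24), both genes for inhibitors of activated STATs. The calls of Tank, Dhx9, Socs3 and Eif2s1 held in all 19 alternatives and that of Ago2 in 18. Those of Eif2s2, Cgas, Pias2 and Pias3 were less stable, holding in 11, 10, 8 and 7 of 19, and Pias3 passed narrowly (edgeR adjusted p = 0.0496). Of the 6 fits that left out a library, Cgas kept its call in 2, and Eif2s2, Pias2 and Pias3 each in 1. The adaptor genes Sting1 and Mavs and the factor gene Irf3 were detected at 17.7 to 27.1 CPM as group means and did not pass.

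Interferon-responsive genes outside the 42 moved in both directions. Of 118 listed, 55 could be tested, of which 7 rose and 10 fell (median log2 fold change 0.03), where 8.94% of all genes tested were higher and 8.44% lower. The list was chosen by hand with earlier results of these data known, so the share called in it is no independent result. The count of 17 was 8 to 10 without knockdown replicate 1, 2 or 3 or control replicate 2 or 3, and correction for GC content and length left 6 higher and 4 lower. The chemokine gene Cxcl10 had 4.73, 3.72 and 4.26 CPM in knockdown libraries, against 1.75, 2.65 and 2.20 CPM in control libraries, and rose (log2 fold change 0.94, SE 0.20, edgeR adjusted p = 0.00458). A further chemokine gene, Ccl5, rose at low levels (log2 fold change 1.40, SE 0.36), at 1.61, 1.96 and 2.09 CPM in knockdown libraries and 0.486, 0.353 and 1.22 CPM in control libraries. Plscr1, a membrane scramblase gene (0.44), the apolipoprotein L gene Apol9a (0.60) and the immunoproteasome gene Psmb10 (0.31) rose as well. Among those that fell were the complement protease genes C1ra (-0.57) and C1s1 (-0.57), the NAD-consuming enzyme gene Cd38 (-0.79), Trafd1 (-0.43), a feedback inhibitor of innate signalling, Rnf213 (-0.30), Pml (-0.27), which organises nuclear bodies, and the RNA helicase gene Mov10 (-0.32). The calls of Cxcl10, Plscr1, Apol9a, Psmb10, C1ra, Cd38 and Trafd1 held in every alternative that tested them. The call of C1s1 held in 15 of 18 alternatives, Ccl5 in 14 of 17, Rnf213 in 13 of 19, and Pml and Mov10 in 12 of 19. Ccl5 and C1s1 each kept their call in 3 of the 6 fits that left out a library, and Rnf213, Pml and Mov10 in 2 of 6. Cxcl10 and Ccl5 respond to NF-kappaB as well as to interferon, and the complement genes are not specific to interferon.

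Leukocyte markers were near 0 and gave no call. Of 16 leukocyte and macrophage markers, 14 lay under 1 CPM in both groups, and Adgre1, Itgam, C1qa, C1qb and Siglech had 0 counts. Their summed level was 7.25 to 10.2 CPM in knockdown libraries and 7.49 to 9.32 CPM in control libraries, most of it from Cd14 and Cd68, neither of which passed the test. Of 11 mesothelial markers 5 were lower and 0 higher, where 8.44% of all genes tested were lower, and 3 of the 11 log2 fold changes were positive. Their summed level was 1642 to 1696 CPM in knockdown libraries, against 1878 to 1986 CPM in control libraries. Of 14 endothelial markers 4 could be tested, of which 2 were lower and 0 higher (median log2 fold change -0.32). Endothelial markers summed to 30.5 to 38.2 CPM in knockdown libraries and 43.5 to 45.8 CPM in control libraries. Fibroblast markers had 1 higher and 1 lower among 5 tested, with a median log2 fold change of 0.18, while their summed level, which follows the most abundant members, was 1567 to 1706 CPM in knockdown libraries and 2012 to 2103 CPM in control libraries. The part of these shifts in the levels of the interferon-stimulated genes was not tested.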

How the data were processed

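The table holds estimated counts per gene, as deposited, for 6 libraries, of which 29.0% of nonzero values are not whole (tolerance 1e-06). Its CPM columns equal, in the deposited table, each count over the library total. Gene length is in bases, as deposited. Per the labels' protocols, mRNA was converted to cDNA and tagmented. The submitters' processing notes name fastp 0.24.0, STAR 2.7.11, SAMtools 1.22.1 and GRCm39. No source used here names the counter or its strand setting, and reads of overlapping genes cannot be told apart.

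Counts were rounded and 92 spike-in rows left out. After filterByExpr and TMM scaling, the whole table was fitted in edgeR 4.0.16 under R 4.3.3 (glmQLFit with robust estimation, glmQLFTest), knockdown over control, with Benjamini-Hochberg adjustment over 13372 genes. The SE is the log2 fold change over the square root of F. Intervals use the degrees of freedom of the fit at 95% confidence. Counting limits and intervals do not cover amplification of the same molecule. The steps were tested on simulated data with 200 changed genes.

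The alternatives tried were scaling by RLE, upper quartile or library size, no filter, at least 10 CPM in 3 libraries, DESeq2 1.42.0 and limma-voom (limma 3.58.1). Others were a replicate block, offsets for GC content and length, rows of gene families summed, and each library left out. The offsets used mgcv 1.9.3, with GC from GRCm38 transcripts matched by gene identifier for 95.6% of genes tested. The families were Ifit3 with Ifit3b, Oas1a with Oas1b and Oas1g, Oasl1 with Oasl2, Ifi203 with Ifi204, and Mx1 with Mx2. Rounding down and adding Gm9706 to Isg15 were chosen after seeing the data. Rounding down, the family sums and adding Gm9706 called 2322, 2324 and 2324 genes, against 2324 as reported. They hardly alter the fit of most genes, so their agreement was all but fixed in advance. The counts of alternatives given for each gene include them. The members, gene lists and tests were chosen with earlier results of these data known. All 42 members are named. Values by library are given for members that were called, did not overlap between groups or had the highest level per length in their role, and of the other lists the called genes (up to 12 a list, by p), receptors, kinases and STATs are named, except for items not reported here. Promoters were matched by symbol for 28 members. Figures were drawn with matplotlib 3.10.9.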

Additional observations from a re-analysis of the deposited data

How the results depend on the processing

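Isg15 kept a positive log2 fold change in all 17 alternatives that gave it an adjusted p (0.66 to 0.97) and its call in 12. Among these, rounding down and the family sums left its log2 fold change at 0.83, as reported, so their agreement adds little. The count of interferon-stimulated genes called was 1 in 12 of 19 alternatives. It was 0 with at least 10 CPM in 3 libraries, which leaves Isg15 out, 0 by DESeq2, which gave Isg15 no adjusted p, and 0 with the GC and length correction with replicate block, where the adjusted p of Isg15 was 0.0760. It ranged from 0 to 1 without one library. None of the 19 other tested members was called in any alternative run on it, where the lowest adjusted p was 0.150, and the sign of 9 of them changed in at least 1 alternative.

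Pathway genes numbered 7 by DESeq2, 6 with GC and length correction and 4 with that correction and the replicate block, and 5 to 10 without one library, against 11 as reported. Other interferon-responsive genes numbered 10 with at least 10 CPM in 3 libraries, 9 by DESeq2, 10 with GC and length correction, 9 with that correction and the replicate block, and 8 to 20 without one library, against 17. All genes called numbered 1535 by DESeq2, 1332 with GC and length correction and replicate block, and 1029 to 3077 without one library, against 2324. The cause was not tested.

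Deviations of same-numbered libraries correlated at -0.21, -0.05 and -0.05 across genes, so the numbers were not treated as pairs. With a replicate block 2001 genes, 8 pathway genes, 14 other responsive genes and Isg15 (adjusted p = 0.0457) were called. Depth limits the scarce members: the median SE of a log2 fold change was 0.20 at 2 to 5 CPM and 0.08 at 20 to 50 CPM.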
